A study of Homo sapiens with 7 samples.

Results

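The 10 genes described here encode effectors of the interferon response: MX1, MX2, ISG15, IFI6, IFI44, XAF1, SAMD9, SAMD9L, CMPK2 and EIF2AK2. They were taken by name from a table of 19978 genes, by a rule that uses no measured value but was set with earlier results of these data known, and all 10 passed the filter on low counts that left 14863 genes for testing. The table holds RNA levels in HEK-293, an established human embryonic kidney cell line, after 48 h in one of 3 media. The control was medium of pH 7.4 with the solvent DMSO (2 samples), acidosis was medium acidified to pH 6.6 with DMSO (3 samples), and the third group was medium of pH 7.4 with 10 µM SRPIN340, an inhibitor of the kinases that phosphorylate SR splicing proteins, in DMSO (2 samples). All groups thus carried DMSO, and no label names interferon or a virus. The study set the inhibitor beside acid medium to compare acidosis with loss of SR protein phosphorylation.

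Interferons are secreted proteins that bind receptors on the cell surface and, through the JAK kinases, activate transcription factors of the STAT family together with IRF9. They bind a DNA element, the interferon-stimulated response element, in the promoters of a set of genes whose products restrict viruses. The MX proteins are dynamin-like GTPases that block incoming viruses, ISG15 is a ubiquitin-like protein that is attached to other proteins, and EIF2AK2 encodes PKR, a kinase that senses double-stranded RNA and stops translation. In cells not exposed to interferon the same genes are transcribed at low levels.

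The core of the response element was searched as GAAANNGAAA, on either strand, in RefSeq promoters of GRCh38.p14 that reach from 250 bases before a transcription start to 50 bases after it. Of the 10 genes, 9 had a promoter in the table and 6 of these held the motif, against 3.57% of all 35116 promoters and 4.38% of the 27305 genes in that table. The windows below are shown because they hold the kind of element through which interferon acts on such genes. Each is written along the gene's strand with the matching bases in capitals.
ISG15 (chr1:1013380-1013409, plus strand): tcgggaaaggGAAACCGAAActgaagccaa
IFI6 (chr1:27672288-27672317, minus strand): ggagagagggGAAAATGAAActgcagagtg
IFI44 (chr1:78649761-78649790, plus strand): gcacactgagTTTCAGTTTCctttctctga
EIF2AK2 (chr2:37156967-37156996, minus strand): agtccaagggGAAAACGAAActgagaacca
SAMD9 (chr7:93118096-93118125, minus strand): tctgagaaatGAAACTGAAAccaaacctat
MX1 (chr21:41420559-41420588, plus strand): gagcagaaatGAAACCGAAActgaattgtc
In IFI44 the motif runs on the opposite strand, so its reverse complement is in capitals. Of the windows shown, that of MX1 has the first base of its match 12 bases after the start. In the others the first base lies from 6 bases (EIF2AK2) to 136 bases (SAMD9) before a start. The match in EIF2AK2 runs across the start. ISG15 holds 2 overlapping matches, IFI6 holds 3, and MX1 has a further match 196 bases before the start of another of its promoters. The promoters of XAF1, SAMD9L and CMPK2 had no match in this window, and MX2 had no entry. Of 60 other interferon genes with a promoter, 29 (48.3%) held the motif. A match describes the letters of the window and not a bound site.

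Library totals were 13615816 to 24110460 estimated counts, and the 2 smallest libraries were acidosis samples, so low genes are measured less precisely there. Levels are given as CPM, counts scaled to a library total of 1000000 after correction of the totals by edgeR's TMM factors. A log2 fold change is from edgeR's quasi-likelihood test on all 7 samples, its p is adjusted by Benjamini-Hochberg over all genes tested, and a gene was called at an adjusted p under 0.05 with an absolute log2 fold change over 1. The acidosis libraries stood apart: their 100 highest genes held 24.1% to 24.8% of the counts, against 15.2% to 15.4% elsewhere, and mitochondrially encoded genes held 0.307% to 0.346%, against 2.38% to 2.89%. Over all genes, the median change in acidosis was -0.05 on the log2 scale with TMM and -0.63 with library totals alone, so changes in acidosis are relative to the typical gene. In bulk RNA, fewer expressing cells and less RNA per cell cannot be told apart.

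In acidosis the effector genes were lower than in control. All 10 passed the p limit in the lower direction, where 34.2% of all genes did, and 7 were called lower (MX1, MX2, IFI44, XAF1, SAMD9, SAMD9L and CMPK2), where 19.1% of all genes were. None of the 10 was called higher, where 14.4% of all genes were. In all 10 the 3 acidosis samples lay below both control samples, which held for 39.5% of all genes. Their median log2 fold change was -3.29, against -0.05 for all genes tested. Leaving aside SAMD9L, which was at the counting floor in acidosis, the log2 fold changes ranged from -0.52 in EIF2AK2 to -4.38 in CMPK2, and the 95% intervals of these estimates did not overlap.

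With SRPIN340, 5 genes were called lower (MX2, ISG15, IFI6, IFI44 and XAF1), where 0.195% of all genes were. SAMD9 passed the p limit below the fold limit, which makes 6 of 10 where 1.53% of all genes passed in that direction. None of the 10 was called higher with SRPIN340, where 0.128% of all genes were. Both SRPIN340 samples lay below both control samples in all 10 genes, which held for 26.8% of all genes. The median log2 fold change of the 10 was -1.37, against 0.00 for all genes. The acidosis and SRPIN340 comparisons share the same 2 control samples, so a control sample that is high for these genes lowers both.

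**Figure D1:**
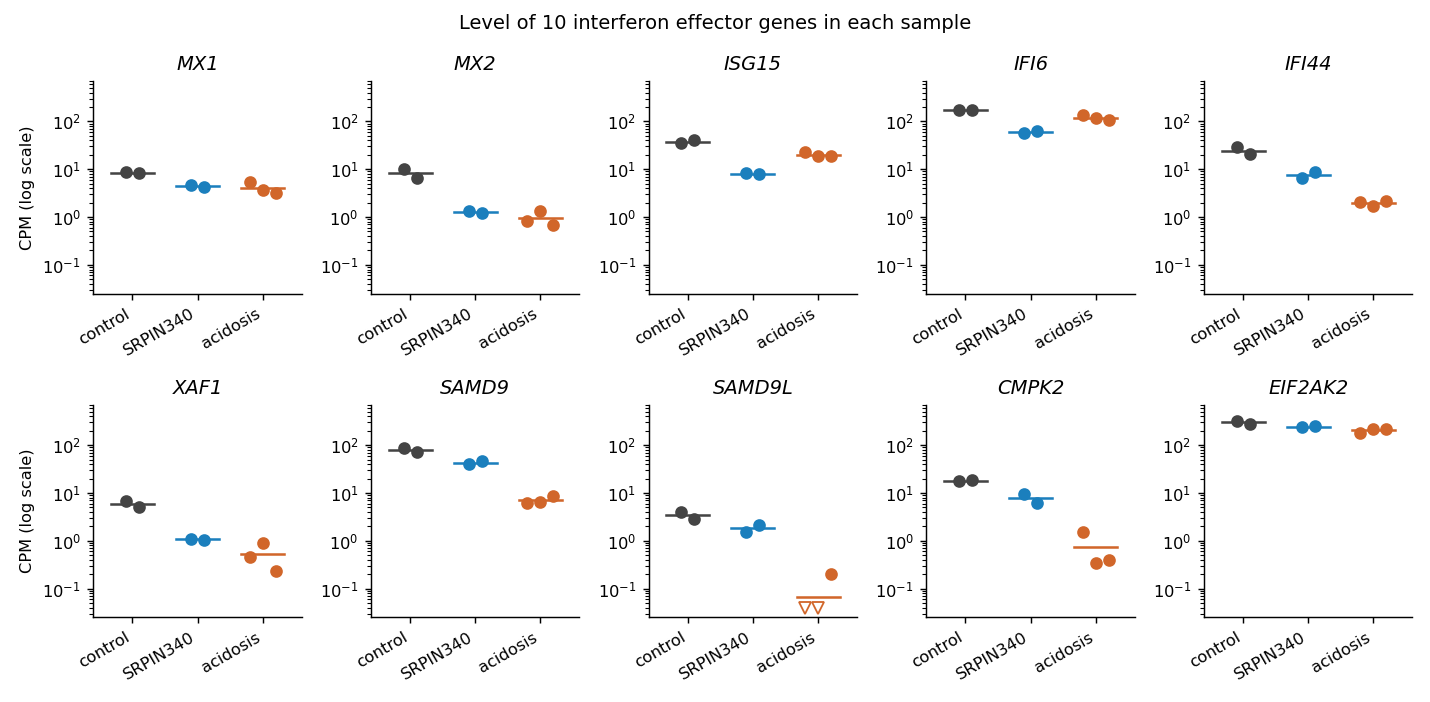
Level of each of the 10 genes in every sample, in CPM on a log axis, with a point per sample, a horizontal line at the group mean and open triangles for samples at 0. In every panel the SRPIN340 and acidosis points lie below the control points, and in ISG15 and IFI6 the acidosis points lie above the SRPIN340 points.

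ISG15 (ENSG00000187608.10, chromosome 1 of GRCh38, 1001138 to 1014540, plus strand) is released as a ubiquitin-like protein and is joined to newly made proteins. It was at 34.7 and 40.5 CPM in the control samples, 8.17 and 7.83 CPM with SRPIN340, and 22.4, 18.6 and 18.9 CPM in acidosis. The 3 groups did not overlap, with acidosis between the other two. ISG15 was called lower with SRPIN340, with an estimate of -2.23 on the log2 scale (standard error 0.154, adjusted p = 0.000463). In acidosis the estimate of -0.91 (standard error 0.133, adjusted p = 0.000194) passed the p limit and stayed under the fold limit. It reached the fold limit without acidosis replicate 1 (-1.01) or control replicate 1 (-1.02).

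IFI6 (ENSG00000126709.16, chromosome 1, 27666064 to 27672212, minus strand) encodes a small membrane protein that protects cells from flaviviruses and from apoptosis. Its level was 176.5 and 174.8 CPM in control, 56.4 and 63.4 CPM with SRPIN340, and 134, 117 and 106 CPM in acidosis. As in ISG15, the SRPIN340 samples were lowest and no groups overlapped. The log2 fold change was -1.55 with SRPIN340 (standard error 0.114, adjusted p = 0.000576) and -0.56 in acidosis (standard error 0.101, adjusted p = 0.000756), the second under the fold limit. Of the 31-base words in its main transcript, 24.4% also occur in transcripts of other genes, most often the overlapping LINC02574, so some reads may be split between them.

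EIF2AK2 (ENSG00000055332.19, chromosome 2, 37099210 to 37157522, minus strand) changed least of the 10 in acidosis and with SRPIN340. Its level was 317 and 279 CPM in control, 235 and 250 CPM with SRPIN340, and 183, 220 and 222 CPM in acidosis. The control samples were highest and the acidosis samples lowest, without overlap. Its fall in acidosis was 0.52 on the log2 scale (log2 fold change -0.52, standard error 0.0955, adjusted p = 0.000862), under the fold limit. With SRPIN340 it was -0.30 (95% interval -0.53 to -0.06, adjusted p = 0.177) and was not called.

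MX1 (ENSG00000157601.15, chromosome 21, 41420020 to 41470071, plus strand) encodes MxA, which acts in the cytoplasm on influenza and other viruses. Its level was 8.65 and 8.37 CPM in control, 4.60 and 4.26 CPM with SRPIN340, and 5.33, 3.76 and 3.12 CPM in acidosis. The treated groups overlapped each other and lay below control. MX1 had a log2 fold change in acidosis of -1.05 (standard error 0.241, adjusted p = 0.00351), a call that rests on the fold limit: it was -0.99 without acidosis replicate 2 and -0.88 without acidosis replicate 3. With SRPIN340 it was -0.94 (95% interval -1.52 to -0.36, adjusted p = 0.0984).

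MX2 (ENSG00000183486.14, chromosome 21, 41361999 to 41409393, plus strand) lies 10626 bases from MX1 on the same strand and encodes MxB, which acts on HIV at the nuclear pore. It was at 9.92 and 6.66 CPM in control, 1.34 and 1.19 CPM with SRPIN340, and 0.834, 1.32 and 0.690 CPM in acidosis. Both treated groups sat far below control and overlapped each other. MX2 was called lower in acidosis (log2 fold change -3.16, standard error 0.334, adjusted p = 2.06e-05) and with SRPIN340 (log2 fold change -2.72, standard error 0.350, adjusted p = 0.00781). The SRPIN340 call was lost without control replicate 1 (adjusted p = 0.0833), SRPIN340 replicate 1 (adjusted p = 0.100) or SRPIN340 replicate 2 (adjusted p = 0.110), while the log2 fold change stayed between -2.81 and -2.41.

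The ratio of MX2 to MX1 within a sample does not depend on how libraries are scaled. Per base of the main transcript, MX2 stood at 0.934 and 0.647 of MX1 in control, 0.237 and 0.228 with SRPIN340, and 0.127, 0.286 and 0.180 in acidosis. The ratio was thus higher in both control samples than in all 5 treated samples.

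IFI44 (ENSG00000137965.11, chromosome 1, 78649796 to 78664078, plus strand) is an antiviral gene that lies 3650 bases from its paralogue IFI44L. Its level was 28.6 and 20.6 CPM in control, 6.65 and 8.70 CPM with SRPIN340, and 2.05, 1.71 and 2.17 CPM in acidosis. The groups formed 3 separate steps, lowest in acidosis. The log2 fold change was -3.63 in acidosis (standard error 0.223, adjusted p = 5.38e-07) and -1.68 with SRPIN340 (standard error 0.213, adjusted p = 0.00755). The SRPIN340 call was lost without control replicate 1 (adjusted p = 0.0624), SRPIN340 replicate 1 (adjusted p = 0.109) or SRPIN340 replicate 2 (adjusted p = 0.058). IFI44L fell from 91.4 and 69.4 CPM to 25.8 and 29.9 CPM with SRPIN340 and to 11.9, 8.71 and 8.07 CPM in acidosis, and was called lower in both.

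SAMD9 (ENSG00000205413.8, chromosome 7, 93099513 to 93118023, minus strand) encodes a cytoplasmic protein that restricts poxviruses and represses translation. Its level was 86.1 and 71.3 CPM in control, 40.2 and 46.5 CPM with SRPIN340, and 6.06, 6.45 and 8.65 CPM in acidosis. The acidosis samples were far below the SRPIN340 samples, which in turn lay below control. SAMD9 was called lower in acidosis at -3.49 on the log2 scale (standard error 0.162, adjusted p = 1.03e-07), the smallest adjusted p of the 10 genes. With SRPIN340 it was -0.86 (standard error 0.156, adjusted p = 0.0318), under the fold limit.

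SAMD9L (ENSG00000177409.12, chromosome 7, 93130056 to 93148385, minus strand), the paralogue 12032 bases away, had the lowest level per kilobase of the main transcript in every group. It was at 3.95 and 2.85 CPM in control, 1.56 and 2.14 CPM with SRPIN340, and 0, 0 and 0.199 CPM in acidosis, where the last value is 2.31 estimated counts. Control and SRPIN340 samples did not overlap, and the acidosis samples were at or under 3 counts, the level treated as the counting floor. SAMD9L was called lower in acidosis (adjusted p = 7.81e-05) and was at least 12.3-fold lower there than the control mean, with 3 counts in the smallest acidosis library as the floor. With SRPIN340 the log2 fold change was -0.89 (95% interval -2.06 to 0.28, adjusted p = 0.426).

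XAF1 (ENSG00000132530.17, chromosome 17, 6755447 to 6775647, plus strand) encodes a protein that binds and counteracts XIAP, an inhibitor of caspases. Its level was 6.74 and 5.03 CPM in control, 1.11 and 1.03 CPM with SRPIN340, and 0.467, 0.888 and 0.228 CPM in acidosis. Acidosis samples lay below SRPIN340 samples and both lay below control. In acidosis XAF1 rested on few estimated counts, 7.86, 9.67 and 2.65. The log2 fold change was -3.43 in acidosis (standard error 0.429, adjusted p = 6.62e-05) and -2.46 with SRPIN340 (standard error 0.429, adjusted p = 0.0284). The SRPIN340 call was lost when any control or SRPIN340 sample was left out, with adjusted p = 0.165 and 0.105 without control replicates 1 and 2, and 0.210 and 0.267 without SRPIN340 replicates 1 and 2. Of the 31-base words of its main transcript, 74% also occur in transcripts of other genes, most often the antisense gene PRAL, and no source used here states whether strand was used in counting, so reads of the 2 genes may not be told apart.

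CMPK2 (ENSG00000134326.12, chromosome 2, 6840570 to 6866635, minus strand) encodes a mitochondrial kinase of pyrimidine nucleotides and overlaps RSAD2, on the opposite strand, whose product viperin turns CTP into a chain terminator of viral RNA. CMPK2 was at 17.5 and 18.5 CPM in control, 9.59 and 6.26 CPM with SRPIN340, and 1.52, 0.335 and 0.388 CPM in acidosis. The groups did not overlap, and acidosis replicate 1 was higher than the other two acidosis samples. CMPK2 was called lower in acidosis at -4.38 on the log2 scale (standard error 0.402, adjusted p = 7.88e-06). Without acidosis replicate 1, which holds most of the group's level, it was called at -5.48. The remaining acidosis samples held 3.65 and 4.51 estimated counts, so -5.48 is fitted close to the counting floor of 3. With SRPIN340 CMPK2 was at -1.19 (95% interval -1.96 to -0.41, adjusted p = 0.118). It was called there without acidosis replicate 1 (adjusted p = 0.0419) and by DESeq2 (adjusted p = 0.0447). Of its 31-base words 10.5% also occur in RSAD2 transcripts. RSAD2 was at 28.0 and 26.7 CPM in control, 5.45 and 8.95 CPM with SRPIN340, and 12.2, 11.9 and 11.4 CPM in acidosis. In CPM, RSAD2 was thus lowest with SRPIN340 and CMPK2 in acidosis. For RSAD2 the difference of acidosis against SRPIN340 was 0.72 on the log2 scale (adjusted p = 0.0103), under the fold limit. With library totals alone it was 0.11 (adjusted p = 0.648).

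**Figure D2:**
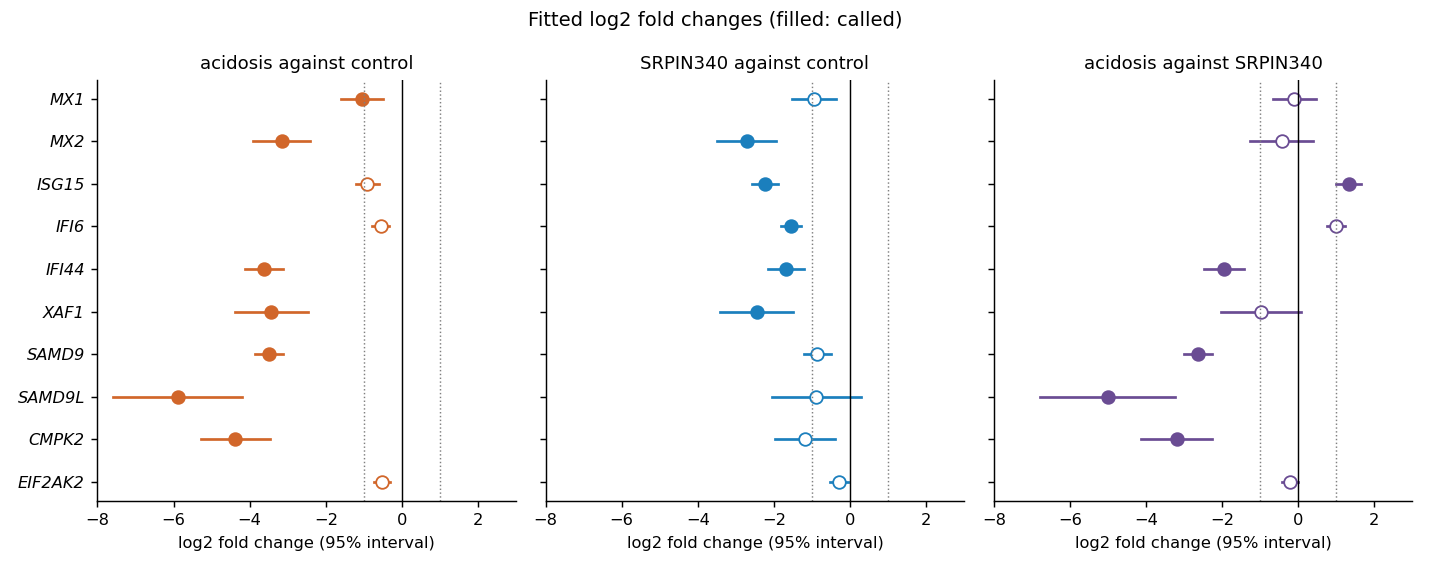
Log2 fold changes of the 10 genes from edgeR, with 95% intervals, for the 3 comparisons, with called genes filled and dotted lines at the fold limit of 1 either way. In acidosis against SRPIN340 the values run from lower in SAMD9L, CMPK2, SAMD9 and IFI44 to higher in ISG15, and the values of SAMD9L in acidosis are fitted against samples at the counting floor and are no bound.

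Tested directly against each other, acidosis and SRPIN340 differed in a part of the genes and in both directions. IFI44, SAMD9, SAMD9L and CMPK2 were called lower in acidosis than with SRPIN340, where 19.7% of all genes were, and ISG15 was called higher, where 14.9% of all genes were. On the log2 scale the difference was -2.63 in SAMD9 (standard error 0.163, adjusted p = 5.71e-07), -3.19 in CMPK2 (standard error 0.415, adjusted p = 8.40e-05) and -1.95 in IFI44 (standard error 0.231, adjusted p = 4.40e-05). Without acidosis replicate 1 the difference in CMPK2 was -4.29, fitted close to the counting floor. SAMD9L was at least 6.72-fold lower in acidosis than the SRPIN340 mean (adjusted p = 0.00031). ISG15 was 1.32 higher on the log2 scale in acidosis (standard error 0.146, adjusted p = 2.75e-05), a difference of 0.71 with library totals alone, which is under the fold limit.

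IFI6 was 0.99 higher on the log2 scale in acidosis than with SRPIN340 (standard error 0.106, adjusted p = 2.14e-05), just under the fold limit. It passed that limit without acidosis replicate 2 (1.01), acidosis replicate 3 (1.07) or SRPIN340 replicate 2 (1.07). It also passed with RLE size factors or DESeq2 (1.02 in each), but with library totals alone the difference was 0.38. The remaining 4 genes did not pass the p limit. MX1 had a log2 fold change of -0.10 (95% interval -0.67 to 0.46, adjusted p = 0.727) and MX2 of -0.44 (95% interval -1.27 to 0.39, adjusted p = 0.315). XAF1 had -0.97 (95% interval -2.03 to 0.08, adjusted p = 0.0907) and was called lower without acidosis replicate 2 (log2 fold change -1.47, adjusted p = 0.0189). EIF2AK2 had -0.22 (adjusted p = 0.0655).

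The order of the genes by level shifted between the groups. In control, in CPM per kilobase of the main transcript, IFI6 stood highest at 216, followed by ISG15 at 59.0, EIF2AK2 at 29.9, IFI44 at 14.6, SAMD9 at 11.6, CMPK2 at 5.83, MX1 at 3.07, MX2 at 2.43, XAF1 at 1.72 and SAMD9L at 0.476. The sample ranges of IFI44 and SAMD9 overlapped, as did those of MX2 and XAF1, and the other neighbours in this order did not. With SRPIN340, EIF2AK2 at 24.3 CPM per kilobase stood above ISG15 at 12.6. In acidosis IFI6 at 147, ISG15 at 31.3 and EIF2AK2 at 20.9 CPM per kilobase stood apart from all others, of which the highest, MX1, was at 1.47. The summed level of the 10 genes was 690 and 628 CPM in control, 364 and 391 CPM with SRPIN340, and 356, 370 and 362 CPM in acidosis. The sum is carried by IFI6 and EIF2AK2, so it hides how differently the lower genes moved in the treated groups.

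The other genes of the pathway were described from lists by role, 81 genes of which 78 were tested. In acidosis, where 19.1% of all genes were called lower and 14.4% higher, 46 of them were called lower and 7 higher (57 and 1 with library totals alone), with a median log2 fold change of -1.32. With SRPIN340, where 0.195% of all genes were called lower, 15 were called lower and 0 higher by edgeR, with a median of -0.53. At an adjusted p without a fold limit 28 were lower, where 1.53% of all genes were, and 0 higher. In acidosis against SRPIN340, 30 were called lower and 10 higher, where 19.7% and 14.9% of all genes were. The number called lower with SRPIN340 was 4 without SRPIN340 replicate 1, 10 without SRPIN340 replicate 2, 11 without control replicate 1 and 13 without control replicate 2.

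Upstream, the 9 interferon genes listed were at or near 0, with sums of 0 to 0.714 CPM a sample, and none passed the filter on low counts. Of 6 receptor chains, 3 were called higher in acidosis (0 with library totals alone), among them IFNGR2, at 60.9 and 58.5 CPM in control and 146, 145 and 146 CPM in acidosis, and IFNGR1 with a log2 fold change of 1.27. IL10RB was called lower at -1.28. Of 9 JAK-STAT genes 2 were called lower and 2 higher (4 and 1 with library totals alone). Over all genes 19.1% were called lower in acidosis and 14.4% higher with TMM, so the JAK-STAT counts are near those shares. SOCS3, a feedback inhibitor, was called higher at 2.76 on the log2 scale.

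Among 12 tested sensors and adaptors, 7 were called lower in acidosis and 0 higher, where 19.1% and 14.4% of all genes were. With SRPIN340, 2 were called lower, where 0.195% of all genes were. RIGI, a sensor of viral RNA ends, had log2 fold changes of -2.19 in acidosis and -1.57 with SRPIN340, and IFIH1, which senses long double-stranded RNA, had -2.73 and -0.68. IRF7, a transcription factor of the response, was called lower in both, at -1.34 in acidosis and -1.76 with SRPIN340. Among 40 further effectors, 30 calls in acidosis were lower and 0 higher, and 10 were called lower with SRPIN340, beside the same shares. IFIT1 had the largest fall of these in acidosis, with a log2 fold change of -5.18, and OAS3, an activator of RNase L, had -2.00 in acidosis and -1.58 with SRPIN340.

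Among 9 genes that attach or remove ISG15, 5 were called lower in acidosis and 2 higher (5 and 0 with library totals alone). Over all genes 19.1% were called lower there and 14.4% higher with TMM, so the 2 called higher are near the share of all genes. With SRPIN340 none of the 9 was called, while 3 passed the p limit in the lower direction, where 1.53% of all genes did. HERC5, the ligase that attaches ISG15, was at 102 and 91.2 CPM in control, 65.5 and 66.5 CPM with SRPIN340 and 29.3, 28.8 and 25.2 CPM in acidosis. Its log2 fold change was -1.79 in acidosis and -0.55 with SRPIN340, so HERC5 was lowest in acidosis and ISG15 itself with SRPIN340. USP18, which removes ISG15 and restrains the receptor, had -1.75 and -0.57.

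Genes around PKR were counted apart. Of 10 genes for its substrate, sister kinases and regulators, 0 were called lower in acidosis and 4 higher. Over all genes 19.1% were called lower and 14.4% higher. With library totals alone the counts of the 10 became 2 lower and 3 higher. PPP1R15A, which directs the phosphatase that reverses the mark PKR sets, was at 47.7 and 43.3 CPM in control, 51.4 and 46.7 CPM with SRPIN340 and 2146, 2137 and 2176 CPM in acidosis, a log2 fold change of 5.57 (adjusted p = 2.48e-10). PPP1R15B rose by 2.47, the stress kinase EIF2AK3 by 1.73 and the substrate EIF2S1 by 1.08 on the log2 scale. With SRPIN340 none of the 10 was called in either direction by edgeR. The p limit was passed by 1, in the lower direction, where 1.53% of all genes passed.

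Of the partners of XAF1, XIAP rose in acidosis from 115 and 119 CPM to 444, 465 and 476 CPM, a log2 fold change of 1.98, and BIRC3 was also called higher. XAF1 and XIAP therefore moved in opposite directions in acidosis, while XIAP with SRPIN340 was at 128 and 131 CPM and was not called. Among 8 nucleotide enzymes beside CMPK2, RSAD2 (-1.20) and SAMHD1 (-1.99), which degrades dNTPs, were called lower in acidosis. DCK (1.02) was called higher, a call lost with library totals alone. Over all genes 19.1% were called lower in acidosis and 14.4% higher. Of 11 dynamins, atlastins and guanylate-binding proteins related to the MX genes, 2 were called lower in acidosis (5 with library totals alone), a share near the 19.1% of all genes, and 0 higher, and with SRPIN340 none was called and none passed the p limit by edgeR.

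**Figure D3:**
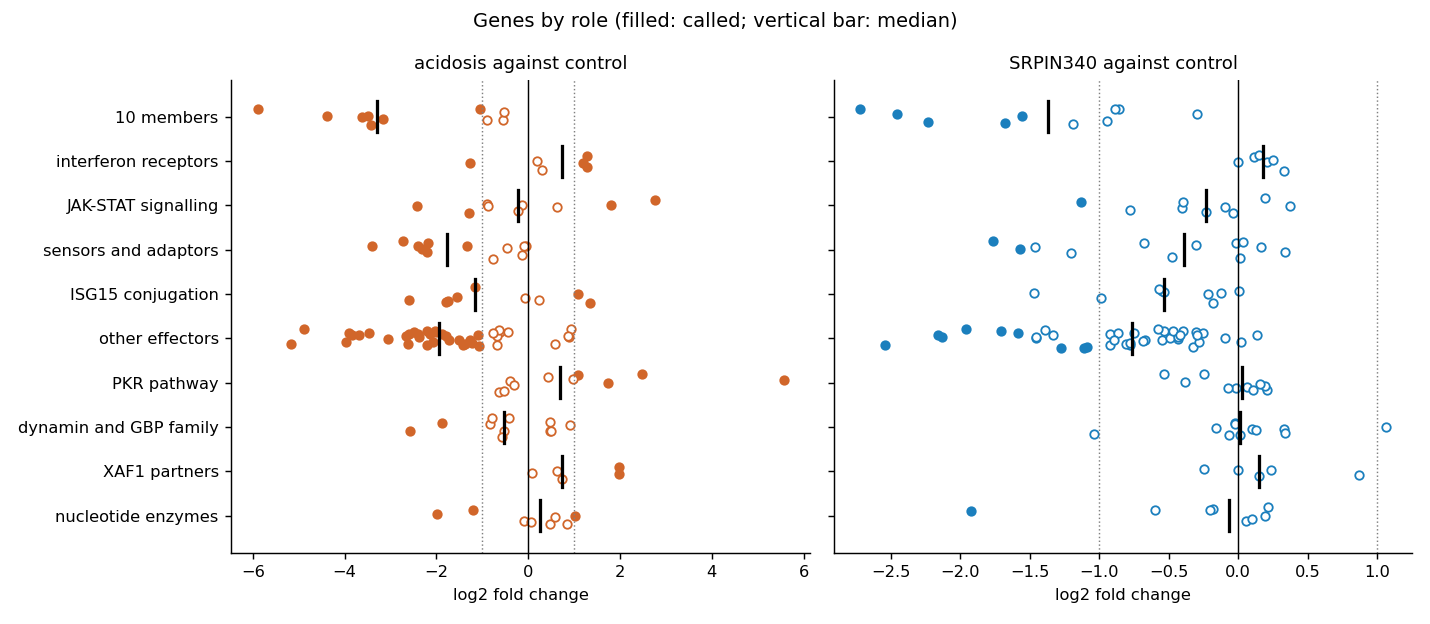
Log2 fold changes of the tested genes by role, a point per gene, with called genes filled, a vertical bar at the median and dotted lines at the fold limit. In acidosis 7 of 12 sensors and 30 of 40 other effectors are called to the left, and 4 of 10 PKR pathway genes and 2 of 5 XAF1 partners are called to the right. Over all genes 19.1% were called lower in acidosis and 14.4% higher.

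The genes most like the 10 were sought by the root mean square difference of centred log2 CPM from their mean profile over the 7 samples, among 13444 genes that averaged 1 CPM or more. The mean profile was 0.11 and -0.11 in control, -1.48 and -1.46 with SRPIN340 and -2.73, -2.87 and -2.77 in acidosis. SP110, a nuclear body gene, was nearest with a difference of 0.195, followed by IFI44L (0.247), HERC6 (0.386), APOL6 and RIGI (0.410). PARP9, IFITM1, IFIH1, PLSCR1 and DDX60 made up the 10, at 0.411 to 0.445, and all but SP110 were in the lists above. Among the 10 genes themselves, IFI44 (0.565) and SAMD9 (0.584) were nearest to the mean profile and SAMD9L (2.40) was farthest.

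Neighbouring genes outside the response moved in both directions in acidosis. HES4, 965 bases from ISG15, was called higher in acidosis with a log2 fold change of 1.81, and AGRN on the other side had 1.00. RIPK4, beyond MX1, was called higher at 1.45, while TMPRSS2, which overlaps MX1 on the opposite strand, had -0.21 (adjusted p = 0.525). GPATCH11, which overlaps the end of EIF2AK2 on the opposite strand, had -0.56 (adjusted p = 0.00541), a fall of the size seen in EIF2AK2 itself. RNF144A, next to CMPK2 and RSAD2, was called lower at -1.58.

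All 9 marker genes of HEK-293, of kidney and neural origin, were detected, with sums of 1249 to 1344 CPM in control and SRPIN340 samples and 3240 to 3262 CPM in acidosis, where VIM alone reached 2675 to 2745 CPM. Markers of leukocytes, dendritic cells and endothelium were low, and those of fibroblasts stood above them. The sums for leukocytes and fibroblasts were higher in acidosis. The 6 leukocyte markers summed to 1.12 to 2.23 CPM elsewhere and 4.30 to 7.86 CPM in acidosis, with CD3E at 0 in every sample. Markers of plasmacytoid and other dendritic cells, 3 genes, summed to at most 1.48 CPM, with CLEC4C at 0. The 4 fibroblast markers summed to 38.8 to 50.8 CPM elsewhere and 80.5 to 92.7 CPM in acidosis, nearly all COL1A1 and LUM, and the 3 endothelial markers to at most 2.32 CPM. The part of these markers, of the concentrated counts and of the mitochondrial share in the acidosis results was not tested.

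**Figure D4:**
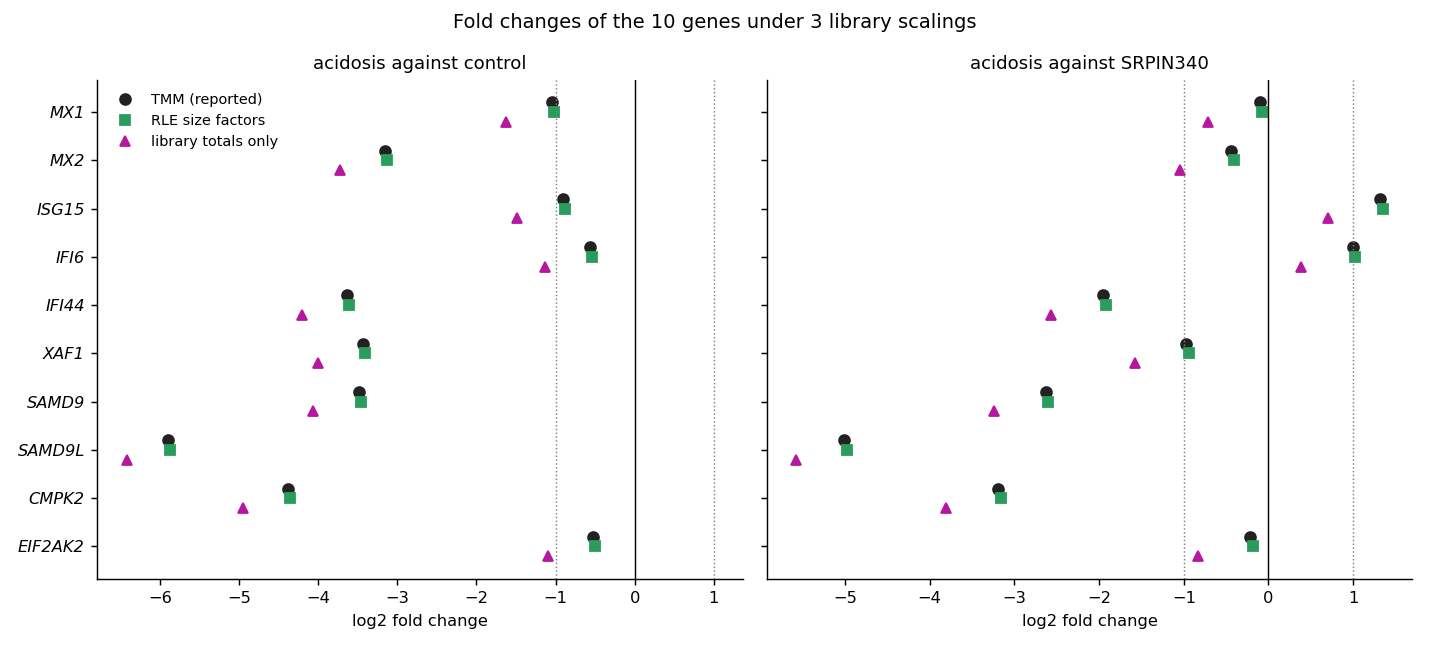
Log2 fold changes of the 10 genes under TMM, RLE size factors and library totals alone, with dotted lines at the fold limit. All points of acidosis against control lie below 0, and with library totals alone all 10 genes pass the fold limit there, while ISG15 and IFI6 stay above 0 in acidosis against SRPIN340. Library totals alone also lower the median over all genes in acidosis.

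The direction of none of the 10 genes turned with the scaling in acidosis against control. A change of scaling moves all genes by nearly the same step, and library totals alone moved them further down. That alternative could therefore not have turned a fall. With library totals alone the log2 fold changes were -1.48 in ISG15, -1.13 in IFI6 and -1.09 in EIF2AK2, and all 10 were called lower. The median over all genes was also lower with that scaling. The 19.1% of all genes called lower is from TMM and is no measure for that count. In acidosis against SRPIN340, library totals alone added calls for MX2 (-1.05) and XAF1 (-1.58) and removed that of ISG15, and RLE size factors added a higher call for IFI6 (1.02).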

How the data were processed

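Poly(A) RNA of 7 HEK-293 samples was sequenced. The authors trimmed reads (Trimmomatic 0.39 and Trim Galore 0.6.6, per the submitters' processing notes), quantified a Gencode GRCh38.p13 transcriptome with Salmon 1.5.1, and deposited gene-level estimated counts from tximport, not normalized between samples. The tximport option and the use of strand are not given in the sources used here. The study's methods call the samples biological repeats, each in replicates, with 1 column deposited per sample.

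After rounding the values to integers, the quasi-likelihood test of edgeR 4.0.16 (R 4.3.3) was run with TMM scaling and filterByExpr in 1 fit of 7 samples. DESeq2 1.42.0, the study's tool, was an alternative, as were scaling, filter, prior count, samples in the fit, fold limit, replicate block and leaving out each sample. Standard errors came from the test statistic, and the tests were tested on simulated data. Genes were placed with GENCODE release 44 (19977 of 19978 matched), and levels per kilobase use the canonical transcript. All replicate pairs differed by more than sampling noise (chi-square per degree of freedom 6.89 to 12.3).

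The 10 genes and the lists were chosen with earlier results of these data known. Named genes were the 10, their nearest protein-coding neighbours, the 10 genes most like them, and up to 4 genes a list with the smallest adjusted p in acidosis against control. Figures were drawn with matplotlib 3.10.9. Marker lists of HEK-293 and of other cell types were read as summed CPM. Single values of some listed genes are not reported here.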

Additional observations from a re-analysis of the deposited data

How the results depend on the processing

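With no fold limit the numbers of all genes passing were 9917 in acidosis against control, 10084 in acidosis against SRPIN340 and 342 with SRPIN340, against 4985, 5148 and 48 called, and 62 (acidosis against SRPIN340) and 28 (SRPIN340) other interferon genes passed, against 40 and 15. Samples with the same replicate number did not deviate together (correlations of -0.109 to 0.0573), so the numbers were not taken as pairs. A replicate block gave 27 calls with SRPIN340 over all genes, 4 of the 10 genes in place of 5 there (XAF1 lost, adjusted p = 0.0672) and 6 in place of 7 in acidosis (MX1 lost at a log2 fold change of -0.90). Leaving out each sample in turn gave 11 to 66 calls over all genes with SRPIN340, 2 to 6 of the 10 genes and 4 to 16 other interferon genes. In acidosis against control it gave 4632 to 5010 calls, 6 to 8 of the 10 genes and 50 to 53 others, and in acidosis against SRPIN340 4795 to 5187, 5 to 7 and 36 to 41. The calls of MX2, IFI44 and XAF1 with SRPIN340 thus depended on single samples, and where 1 sample of a group remained it was assumed to vary like the other groups. With library totals alone 13.5% of the calls in acidosis were higher in place of 43.0%. Among log2 fold changes of the 10 genes called in the main run or in the alternative, none reversed its sign. Sign changes of estimates called in neither run were not counted.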
